A study of Mus musculus with 4 samples.

Results

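Pseudogenes are copies of genes that have lost, or are presumed to have lost, the ability to encode the parental protein. Many mouse pseudogenes are retrocopies, made when a spliced mRNA is reverse-transcribed and inserted elsewhere in the genome, so they usually lack introns and can be nearly identical to the mRNA of the parent. Ribosomal protein genes have especially many such copies, and short reads from a parent mRNA can be placed on a copy or the reverse. N6-methyladenosine (m6A) is written on mRNA mainly by a nuclear complex whose catalytic subunit is METTL3, and introns and splicing bear on where it is written.

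The positions described here are the m6A sites that the deposited site tables assign to a gene whose symbol ends in -ps, with or without a number, except Tpt1-ps3. They were chosen by name among the sites called in any library, with no further measured value, when earlier results of these data were known. There were 8316 distinct sites in 542 pseudogenes, of 1076788 distinct sites in 20001 genes or outside genes in the whole series. The symbol left after removing the suffix was taken as the parent, and 462 of the 542 pseudogenes had a listed parent, which gave 247 parent genes. The largest groups of copies came from Rpl31 with 16 pseudogenes, Rpsa and Rps12 with 10 each, and Rps19 with 9, all of them components of the cytosolic ribosome.

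The study profiled m6A by GLORI in polyA RNA of day 6 mouse retinal organoids, in 2 libraries without dTAG13 (0 h) and 2 libraries after 8 h in 125 nM dTAG13. In GLORI, unmethylated A is deaminated and read as G while m6A is still read as A, so the level of a site is the percentage of its A-or-G reads that carry A. All organoids, the untreated ones included, came from an Rx:GFP retinal reporter line with an FKBP12F36V-HA degron at the C-terminus of endogenous Mettl3, were grown with AGN and share a batch in the labels, and dTAG13 directs degron-tagged protein to degradation. The genotype text names a different Mettl gene in each library whereas the series title and design name METTL3, and nothing in the labels says that replicates were separate cultures, so p-values measure only the spread between these libraries, which may be technical. All 5 retinal progenitor markers checked (Rax, Pax6, Six3, Six6 and Lhx2) and all 4 pluripotency markers (Pou5f1, Nanog, Zfp42 and Dppa5a) were listed in all 4 libraries, 2 of 4 neuron markers and 1 of 4 mesoderm and endoderm markers were, and T and Mesp1 were listed in none. The summed coverage of the pluripotency markers, which is not normalised, was 867 and 883 in the untreated pair and 615 and 799 in the dTAG13 pair. That of the retinal progenitor markers was 1917 and 2293 in the untreated pair and 1409 and 1985 in the dTAG13 pair. The part of the cells with these markers in the results was not tested.

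RefSeq, assembly GRCm38, held 528 of the 542 symbols. It classed 478 as pseudogenes, 41 as transcribed pseudogenes, 8 as protein-coding genes, Tmem250-ps and Hnrnpa1l2-ps2 among them, and 1 as a long noncoding RNA. All are kept below because members were chosen by symbol. The median length of the matched genes was 898 bases, and 180 of them overlapped another gene's interval there. Among those named below, the overlap was with Zfp804b for Tubb4b-ps1, Blm for Ndufab1-ps, Smg6 for Rps12-ps19 and Zfp786 for Rpl35a-ps7. It was with Sult2a4 for Zbed4-ps3, Msn for Psmb7-ps1, Cacnb4 for Bloc1s2-ps, Cenpp for Tes3-ps, Sfi1 for Pisd-ps1 and Cdh18 for Hnrnpa1l2-ps2. Other named members overlapped a gene as well, among them Hmgb1-ps7, Mdk-ps1, Rps12-ps4 and Rps15a-ps3. Reads at those places cannot be ascribed to the pseudogene alone, and reads from near-identical copies are equally uncertain. Positions are given as the tables list them. The labels name mm10, but only 4.03% of the sites fell inside the GRCm38 interval of their gene, although 100% lay on its chromosome, so the build is not settled and exon, intron and UTR were not assigned.

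The first question was whether pseudogenes lost listed sites after dTAG13, as other genes did. Pseudogenes carried 2446 and 2492 listed sites before treatment and 2081 and 2308 after it. Both dTAG13 libraries lay below both untreated ones, and the first was the lowest. The mean went from 2469 ± 32.5 to 2194.5 ± 161 sites (SD, n = 2 libraries per group), a ratio of 0.889 (exact two-sided permutation test, p = 0.333, the smallest p that 2 against 2 libraries can give). The parents went from 4048 and 4120 sites to 3470 and 3638, a ratio of 0.870. All other genes together, the parents included, went from 258291 and 269675 to 176650 and 199621, a ratio of 0.713. Pseudogene sites therefore made up 0.938% and 0.916% of the sites inside genes without dTAG13 and 1.16% and 1.14% with it. That share was higher in both dTAG13 libraries by 0.227 percentage points (exact permutation test, p = 0.333). Among pseudogene and parent sites alone the share was 37.7% and 37.7% against 37.5% and 38.8%, and the groups overlapped (exact permutation test, p = 1).

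**Figure D1:**
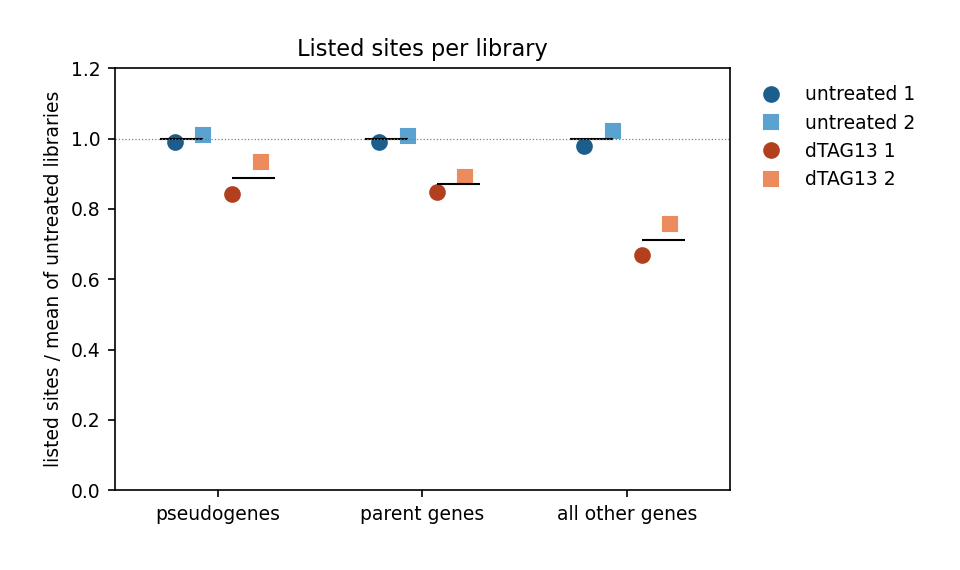
Listed m6A sites per library, divided by the mean of the 2 untreated libraries, for pseudogenes, their parent genes and all other genes (parents included); points are libraries and bars are group means. The dTAG13 means sit at 0.889 for pseudogenes, 0.870 for parents and 0.713 for all other genes.

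Most pseudogene sites were of low level, and the typical level was nearly the same in every library. Medians were 20.3% and 20.0% before treatment and 19.9% and 20.3% after it, and the groups overlapped (exact permutation test, p = 1). The sign of the difference of -0.06 percentage points between group means turned when untreated 1 or dTAG13 1 was left out (0.08 and 0.15 percentage points). In all other genes the median was higher, at 28.3% and 27.1% in the untreated pair and 29.5% and 29.5% in the dTAG13 pair. The parents were close to their pseudogenes at 18.8% and 18.7%, and 19.7% and 19.2%. The depth behind a pseudogene site, a median of 127 and 124 reads without dTAG13 and 116 and 141 with it, overlapped between the groups. The deposited conversion rate, the share of A read as G in the gene, had a median of 95.8% and 96.3% without dTAG13 and 96.5% and 96.4% with it, so both dTAG13 libraries were slightly higher, and its part in the results was not tested.

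The counts did not lie the same way at every level. Between 10 and 20% there were 1189 and 1238 untreated and 1044 and 1133 dTAG13 sites, and between 20 and 40% there were 726 and 730 against 590 and 656. Between 40 and 90% there were 398 and 390 against 302 and 373. In these classes both dTAG13 libraries were below both untreated libraries. At 90% or more the order was the reverse: 133 and 134 sites in the untreated pair and 145 and 146 in the dTAG13 pair, a ratio of 1.09 (exact permutation test, p = 0.333). The same class had a ratio of 0.986 in the parents and 0.849 in all other genes. These counts hold sites of any listed depth. Only 5 pseudogene sites had at least 50 reads in both untreated libraries and an untreated mean of 90% or more. Among pseudogene sites of at least 50% with at least 50 reads the groups overlapped, at 124 and 135 against 110 and 172. The sensory receptor pseudogenes, 12 copies of olfactory and other chemoreceptor genes, were unlike the rest in level, with medians of 40.7% and 91.6% without dTAG13 and 96.4% and 67.2% with it over 29, 34, 17 and 30 sites.

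Few pseudogene sites recurred between libraries. Of the 8316 sites, 7457 (89.7%) were listed in a single library, 735 in 2, 96 in 3 and 28 in all 4. In all other genes 91.4% were listed in a single library. Another listed site lay within 10 bases of 33.7% and 30.1% of the pseudogene sites without dTAG13, and of 34.8% and 32.9% with it, so the groups overlapped. A site enters a table only if called: the lowest values listed were 15 reads, 5 A reads and a level of 10%. A site missing from a table may therefore be unmethylated, too shallow or below those limits.

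Recurrence with dTAG13 was set against recurrence between the untreated replicates. Of 1890 sites read 50 times or more in untreated 1, 11.7% (Wilson 95% interval 10.4 to 13.3%) were listed in untreated 2, 8.20% (7.05 to 9.52%) in dTAG13 1 and 9.05% (7.84 to 10.4%) in dTAG13 2. Of 1915 such sites in untreated 2, 11.4% (10.1 to 12.9%) were listed in untreated 1, 8.15% (7.003 to 9.46%) in dTAG13 1 and 10.2% (8.91 to 11.6%) in dTAG13 2. Recovery was lower in the dTAG13 libraries from either untreated starting point. The intervals, which cover counting error only, overlapped those of the untreated pair for dTAG13 2 and not for dTAG13 1. The mean recovery in dTAG13 over that in the other untreated library was 0.768 ± 0.0475 (SD over the 2 starting libraries), against 0.631 in the parents and 0.555 in all other genes. No test across libraries was made of this ratio. From dTAG13 1, 11.1% of 1604 sites were listed in dTAG13 2 and 9.10% and 9.16% in the untreated libraries. From dTAG13 2, 10.2% of 1839 were listed in dTAG13 1 and 9.03% and 10.2% in the untreated libraries. In all other genes recovery between the dTAG13 libraries was 7.44% and 6.43%. That was below recovery from them in the untreated libraries, at 8.46% and 8.39%, and 7.86% and 7.91%.

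For sites of at least 50% the gap from an untreated start was wider. Of 124 sites in untreated 1, 24.2% (17.5 to 32.4%) were listed in untreated 2, 10.5% (6.23 to 17.1%) in dTAG13 1 and 8.87% (5.03 to 15.2%) in dTAG13 2. Of 135 sites in untreated 2, 20.0% (14.1 to 27.5%) were listed in untreated 1, 8.89% (5.16 to 14.9%) in dTAG13 1 and 9.63% (5.71 to 15.8%) in dTAG13 2. Their ratio of recovery was 0.431 in pseudogenes, 0.286 in the parents and 0.277 in all other genes. From dTAG13 1, 12.7% of 110 such sites were listed in dTAG13 2, against 8.18% and 10.9% in the untreated libraries. From dTAG13 2, 8.14% of 172 were listed in dTAG13 1, against 7.56% and 9.30% in the untreated libraries. Counted by pairs of libraries, 253 pseudogene sites were listed in both untreated libraries and 201 in both dTAG13 libraries, a ratio of 0.794, against 0.558 in the parents and 0.441 in all other genes.

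Sites that both untreated libraries listed at high level had several fates after dTAG13. Some were no longer listed, some were listed at a lower level and some stayed high. There were 23 pseudogene sites, in 21 pseudogenes, with at least 50 reads in both untreated libraries and a mean of 50% or more. With dTAG13, 14 of them (60.9%) were listed in neither library, 3 in 1 library and 6 (26.1%) in both. In the parents 32 of 44 such sites (72.7%) were listed in neither dTAG13 library and 2 (4.55%) in both. In all other genes 2806 of 3491 (80.4%) were listed in neither and 119 (3.41%) in both. All 4 of the 23 sites that lay in ribosomal protein pseudogenes were listed in both dTAG13 libraries, and none of the 14 lost sites lay in one; this split was noticed after the values were seen and was not tested. In the opposite direction, 8 pseudogene sites met the same limits in both dTAG13 libraries, and 2 of those were listed in neither untreated library. Absence from both untreated libraries held for 1 of 3 such sites in the parents and for 389 of 505 in all other genes.

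**Figure D2:**
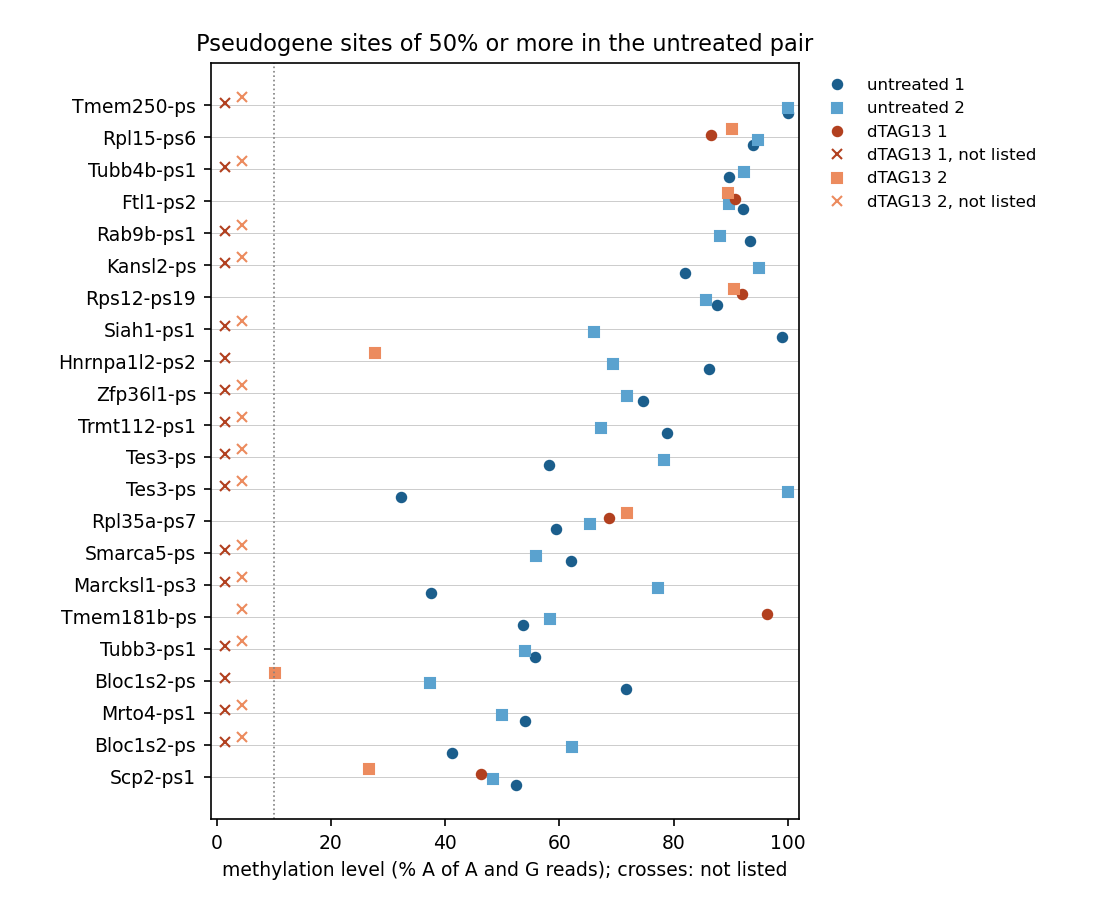
Methylation level, as the percentage of A among A and G reads, in each library at 22 of the 23 pseudogene sites with at least 50 reads in both untreated libraries and an untreated mean of 50% or more; the dotted line marks the lowest listed level, 10%, and crosses at the left edge mark libraries in which the site was not listed, not a measured level. At 14 sites both dTAG13 points are crosses, and at 5 sites, 3 of them in ribosomal protein pseudogenes, both are measured.

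The most deeply read of the lost sites was in Tubb4b-ps1, a copy of the gene for a beta-tubulin, the building block of microtubules. This site, at position 7230736 of chromosome 5 on the plus strand, was at 89.7% of 3036 reads and 92.4% of 3801 reads in the untreated libraries and was listed in neither dTAG13 library. The gene coverage of Tubb4b-ps1 was 878 and 1010.2 in the untreated pair and 727 and 1053.5 in the dTAG13 pair. Its RefSeq interval overlaps that of Zfp804b, so these reads cannot be ascribed to Tubb4b-ps1 alone. Tubb4b also had a high site, at position 25112283 of chromosome 2 on the minus strand, at 82.3% of 372 reads and 84.5% of 509 reads in the untreated libraries and listed in neither dTAG13 library. Both copies thus held a high site in each untreated library and none of these in either dTAG13 library. Tubb4b had a coverage of 99.4 and 119 in the untreated pair and 90.8 and 116 in the dTAG13 pair, below that of Tubb4b-ps1 in every library. In number of listed sites Tubb4b-ps1 went the other way, from 14 and 18 to 23 and 23.

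Both other lost sites whose untreated mean reached 90% were shallower. Rab9b-ps1, a copy of a gene for an endosomal Rab GTPase, had a site at position 104525945 of chromosome X on the plus strand at 93.4% of 331 reads and 88.1% of 354 reads. Rab9b-ps1 had a gene coverage of 140 and 143 without dTAG13 and of 167 and 270.2 after it. That value is an unnormalised mean over positions, so the depth at this site with dTAG13 is not known. Tmem250-ps had a site at position 26028402 of chromosome 2 on the minus strand, where 100% of 132 reads and 100% of 70 reads were A, and its coverage was 117 and 115 against 86.3 and 122. Neither symbol had a listed parent, and Tmem250-ps is a protein-coding gene in RefSeq.

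The remaining lost sites of 50% or more lay between an untreated mean of 51.7% and 88.4%. Kansl2-ps, a copy of a gene for a histone acetyltransferase complex subunit, had 81.9% of 404 reads and 94.9% of 573 reads at position 72324062 of chromosome 7. Siah1-ps1, a copy of a ubiquitin ligase gene, had 99.1% of 649 reads and 66.0% of 447 reads at position 49857300 of chromosome 19. Its untreated libraries were thus far apart although both were deep. Zfp36l1-ps, a copy of the gene for a protein that binds AU-rich mRNA and promotes its decay, had 74.6% of 236 reads and 71.9% of 235 reads at position 37270347 of chromosome X. Its parent Zfp36l1 had a site at position 80154925 of chromosome 12 with 56.0% of 25 reads and 73.3% of 90 reads without dTAG13, 37.9% of 58 reads in dTAG13 1 and no listing in dTAG13 2. Trmt112-ps1, from the gene of an activator of RNA and protein methyltransferases, had 78.8% of 118 reads and 67.3% of 52 reads, and Tubb3-ps1, from the neuronal beta-tubulin gene, had 55.8% of 104 reads and 54.0% of 124 reads. Neither was listed with dTAG13. The others in this class were in Bloc1s2-ps, Marcksl1-ps3, Mrto4-ps1, Smarca5-ps and Tes3-ps, the last of which had 2 sites, 1 of them at 32.4% in untreated 1 and 100% in untreated 2. Of the 3 sites listed in 1 dTAG13 library, Hnrnpa1l2-ps2, also protein-coding in RefSeq, had 86.3% and 69.3% without dTAG13 and 27.7% in dTAG13 2, Bloc1s2-ps had 71.7% and 37.4% and then 10.2% in dTAG13 2, and Tmem181b-ps had 53.6% and 58.4% and then 96.3% of 27 reads in dTAG13 1.

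Sites that kept a high level were mostly in copies of ribosomal protein genes. Rpl15-ps6, from a protein of the large ribosomal subunit, had 93.8% of 146 reads and 94.7% of 151 reads without dTAG13 and 86.6% of 82 reads and 90.2% of 133 reads with it, at position 52341423 of chromosome 15 on the minus strand. The dTAG13 libraries were both lower, by 5.86 percentage points on average (quasi-binomial test, adjusted p = 0.625). Rps12-ps19, from a small-subunit protein, had 87.6% and 85.7% without dTAG13 and 92.02% and 90.6% with it, on 852 to 1152 reads at position 74962034 of chromosome 11 on the minus strand. Here the dTAG13 libraries were both higher, by 4.68 percentage points, and this site had the smallest p of all pseudogene sites (quasi-binomial test, adjusted p = 0.343). Rpl35a-ps7, whose only listed site this was, had 59.4% and 65.3% without dTAG13 and 68.7% and 71.9% with it on 284 to 420 reads, again with both dTAG13 libraries above both untreated ones (adjusted p = 0.551, same test). Ftl1-ps2, from the ferritin light chain gene of iron storage, had 92.2% and 89.8% without dTAG13 and 90.7% and 89.5% with it on 54 to 98 reads at position 130428015 of chromosome 10, and the groups overlapped. Scp2-ps1, from the sterol carrier protein gene, had 52.3% and 48.4% without dTAG13 and 46.3% and 26.7% with it, both below (adjusted p = 0.612, same test).

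Changes in level were tested wherever every library listed a site on 20 reads or more, 2321 sites in the whole series, with Benjamini-Hochberg adjustment over all of them. All 28 pseudogene sites listed in all 4 libraries entered the test, 1 in each of 28 pseudogenes. None passed the adjusted threshold of 0.05 in either direction in the quasi-binomial model moderated with limma, and 2 had an unadjusted p under 0.05, Rps12-ps19 and Ndufab1-ps. With limma on log2 odds 0 were called, and with Fisher's exact test on reads summed over replicates, which ignores the spread between them, 9. Over all 2321 sites, 2.28% were called, 51 (2.20%) lower and 2 (0.0862%) higher with dTAG13, and 9.35% had an unadjusted p under 0.05. At 5 of the 28 sites both dTAG13 libraries were below both untreated libraries, at 5 both were above, and at 18 the groups overlapped. Each 5 is 17.9%, next to backgrounds of 19.4% below and 17.8% above over all sites tested, so the pseudogene shares were near the background. The median change was -0.58 percentage points, against 0.10 over all sites, with a range from -13.9 to 14.8. Because a site had to be listed in both dTAG13 libraries to be tested, sites that dropped below the listing limits could not enter.

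**Figure D3:**
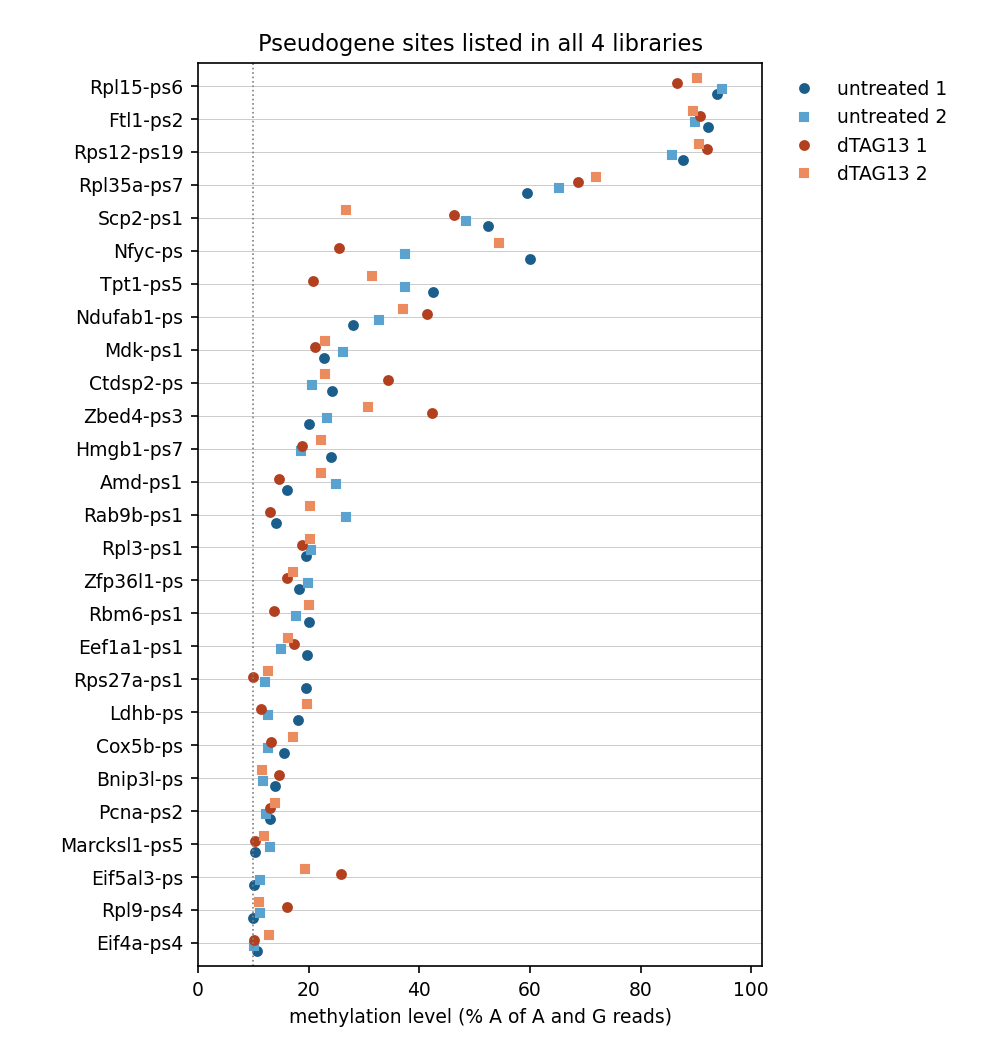
Methylation level in each library, as the percentage of A among A and G reads, at 27 of the 28 pseudogene sites listed in all 4 libraries, in order of their untreated mean; the dotted line is the lowest listed level, 10%. The 4 libraries lie together at most sites, the groups overlap at 18, and the levels run from 10.0% to 94.7%.

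Among the 28 sites, Ndufab1-ps, from the gene of the mitochondrial acyl carrier protein, had 28.1% and 32.8% without dTAG13 and 41.4% and 37.1% with it, on 1457 to 2549 reads. Both dTAG13 libraries were above both untreated libraries, by 8.80 percentage points on average (quasi-binomial test, adjusted p = 0.401). Eif5al3-ps, from an eIF5A-like gene, had 10.2% and 11.2% against 25.8% and 19.4%, and Zbed4-ps3, from a BED zinc finger gene, had 20.0% and 23.4% against 42.3% and 30.8%. Both were higher in both dTAG13 libraries, on 31 to 143 and 50 to 167 reads (adjusted p = 0.564 for each, same test). None of these 3 differences passed the threshold after adjustment over the 2321 sites, and before adjustment that of Ndufab1-ps had p = 0.0278 in the quasi-binomial model moderated with limma.

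Tpt1-ps5 was among the pseudogenes with a tested site in both copy and parent. It is a copy of Tpt1, the gene of translationally controlled tumour protein, a small abundant protein tied to growth. The pseudogene site, at position 37608408 of chromosome 9 on the plus strand, had 42.5% of 685 reads and 37.4% of 628 reads without dTAG13 and 20.7% of 420 reads and 31.4% of 913 reads with it. Both dTAG13 libraries were below both untreated ones, at a mean of 26.1 ± 7.58% against 40.0 ± 3.58% (SD, n = 2; quasi-binomial test, adjusted p = 0.544). Tpt1 at position 76085620 of chromosome 14 had 45.9% of 10767 reads and 43.1% of 9825 reads without dTAG13 and 27.4% of 6572 reads and 26.8% of 10569 reads with it. That site fell by 17.4 percentage points (adjusted p = 0.0089, same test), a call that was lost (adjusted p up to 0.242) when any single library was left out or with the replicate number as a block. The coverage of the pair was alike, at 3727 and 3564 for Tpt1-ps5 and 3537 and 3444 for Tpt1 without dTAG13. With dTAG13 it was 2599 and 3435 for Tpt1-ps5 and 2299 and 3639 for Tpt1. In level, no other such pair was lower without overlap in both copy and parent. Ftl1 was lower (15.2% and 14.8% against 10.6% and 10.7%), while the groups overlapped in Ftl1-ps2. Rpl15-ps6 was lower while Rpl15 overlapped, and Ctdsp2 was higher while Ctdsp2-ps overlapped. In Rpl3 and Eef1a1 the groups overlapped in copy and parent. Marcksl1 was lower at position 129409712 and overlapped at its other tested sites, and Marcksl1-ps5 overlapped.

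Of the 51 tested parent sites, 2 were called lower and none higher, next to 2.20% lower and 0.0862% higher over all 2321 sites. Tpt1 held 1 of the 2. The other was in Mid1, the gene of a microtubule-binding ubiquitin ligase, at position 168773398 of chromosome X, where the level was 88.2% and 76.9% in the untreated pair and 22.6% and 19.5% in the dTAG13 pair (adjusted p = 0.0257, quasi-binomial test), a call lost in the same settings (adjusted p up to 0.313). Its pseudogene Mid1-ps1, on chromosome Y, had 28 listed sites, of which 1 was in more than 1 library and none in all 4, so it offered no tested site. Its listed sites numbered 8 and 11 without dTAG13 and 8 and 3 with it.

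At the tested sites named below the mean differed by -8.80 to 6.35 percentage points, and the groups overlapped at each of them except that of Zfp36l1-ps. The most deeply read was in Eif4a-ps4, from a gene of the RNA helicase of translation initiation, with 10.7% of 13237 reads and 10.1% of 13427 reads without dTAG13 and 10.1% of 7417 reads and 12.8% of 9347 reads with it. All 4 libraries lay just above the listing limit of 10%. Rpl3-ps1, from a large-subunit ribosomal protein, was close to constant at 19.5%, 20.3%, 18.7% and 20.2% on 4397 to 8792 reads. So was Pcna-ps2, from the sliding clamp of DNA replication, at 13.0%, 12.2%, 13.0% and 13.9% on 2538 to 5917 reads. Bnip3l-ps, from a mitophagy receptor gene, had 13.95% and 11.7% against 14.6% and 11.6% on 2180 to 6056 reads. A lower site of Zfp36l1-ps, at position 37270522 and unlike its lost high site, had 18.3% and 19.9% against 16.0% and 17.3%, with the dTAG13 libraries below by 2.45 percentage points (quasi-binomial test, adjusted p = 0.852). Rab9b-ps1 likewise kept a low site, at 14.1% and 26.7% against 13.1% and 20.3%, next to its lost high one. In Nfyc-ps, from a subunit of the transcription factor NF-Y, replicates differed the most, at 60.0% and 37.5% against 25.5% and 54.3% on 40 to 137 reads. Others were in Amd-ps1, Cox5b-ps, Ctdsp2-ps, Eef1a1-ps1, Hmgb1-ps7, Ldhb-ps, Marcksl1-ps5, Mdk-ps1, Rbm6-ps1, Rpl9-ps4 and Rps27a-ps1, with untreated means from 10.6% to 24.4%.

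Some sites were listed in both libraries of a group and in neither of the other. With at least 50 reads in both, 134 of 201 pseudogene sites of the untreated pair were listed in neither dTAG13 library. Likewise 107 of 173 of the dTAG13 pair were listed in neither untreated library. The same counts were 320 of 464 and 157 of 261 in the parents. In all other genes they were 14725 of 18979 and 5831 of 8737. The deepest untreated-only site, in H3f3a-ps1, a copy of a histone H3.3 gene, was near the listing limit at 10.2% of 4557 reads and 10.7% of 5117 reads. The other 4 of the deepest 5 were the high site of Tubb4b-ps1, a second site of H3f3a-ps1 at 14.1% and 10.2%, 1 in Bnip3l-ps at 10.1% and 10.6%, and 1 in Eif4a-ps4 at 14.3% and 28.1%. The deepest dTAG13-only sites were low in level, with 16.2% and 11.01% in Rps23-ps1, 10.1% and 14.9% in Hdac1-ps, 14.6% and 11.9% in Tyms-ps, 10.6% and 10.1% in Rpl7a-ps12, and 13.0% and 13.4% in Ldhb-ps. A site that close to 10% can be listed or not with a small shift in level. At 50% or more, 14 sites were untreated-only and 2 dTAG13-only. The latter were in Spcs2-ps, from a signal peptidase subunit gene, at 71.2% and 31.4%, and in Tmem41b-ps, from an endoplasmic reticulum scramblase gene, at 60.5% and 71.7%.

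The number of listed sites varied widely between pseudogenes. The median was 8 sites over the 4 libraries, 71 pseudogenes had 1, and the 10 with the most held 1201 sites, 14.4% of all. Pisd-ps1, from phosphatidylserine decarboxylase, had the most with 164, at 64 and 44 without dTAG13 and 40 and 47 with it. Rybp-ps, from a gene of a Polycomb complex subunit, had 142, at 47 and 57 without dTAG13 and 27 and 18 with it. Both dTAG13 libraries of Rybp-ps were lower, a ratio of 0.433, while its coverage of 118 and 118 against 90 and 140 overlapped. Hspd1-ps3, from the mitochondrial chaperonin gene, had 28 and 31 sites in the untreated pair and 42 and 38 in the dTAG13 pair, both higher, a ratio of 1.36. Its parent Hspd1 had 17 and 19 sites in the untreated pair and 20 and 27 in the dTAG13 pair.

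The other 7 of the 10 showed both directions. Ap3m1-ps, from an adaptor complex subunit gene, went from 35 and 36 sites to 18 and 25, and its parent Ap3m1 from 20 and 14 to 9 and 12. Tes3-ps went from 40 and 45 to 23 and 36. Tsg101-ps, from an endosomal sorting gene, went from 24 and 25 to 29 and 28, and Hdac1-ps, from a histone deacetylase gene, from 34 and 33 to 35 and 37. In Nsa2-ps1 (28 and 43 against 34 and 36), Tmem41b-ps (28 and 34 against 31 and 26) and Amd-ps1 (27 and 33 against 24 and 32) the groups overlapped.

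Grouped by the parent's family, ribosomal protein pseudogenes had like numbers of sites in both groups, while several other families had fewer with dTAG13. The 196 ribosomal protein pseudogenes had 325 and 344 sites in the untreated pair and 320 and 362 in the dTAG13 pair, and the groups overlapped (ratio 1.02). The 24 pseudogenes of mitochondrial and energy metabolism genes had 112 and 106 against 119 and 130, both dTAG13 libraries higher (ratio 1.14, exact permutation test, p = 0.333). Translation factor pseudogenes had 79 and 67 against 89 and 78 (ratio 1.14) and heat shock and chaperone pseudogenes 86 and 95 against 89 and 107 (ratio 1.08), both with overlap. Cytoskeleton pseudogenes had 52 and 72 against 62 and 65, also with overlap.

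Families with fewer sites in both dTAG13 libraries were zinc finger, RNA binding and splicing, chromatin and histone, and cell cycle and DNA replication. The 5 zinc finger pseudogenes had 38 and 44 sites in the untreated pair and 24 and 23 in the dTAG13 pair, a ratio of 0.573. The 9 RNA binding and splicing pseudogenes had 44 and 36 against 23 and 33 (ratio 0.700), the 17 chromatin and histone pseudogenes 81 and 88 against 69 and 77 (ratio 0.864), and the 3 cell cycle pseudogenes 20 and 28 against 16 and 18 (ratio 0.708). The 239 pseudogenes in no family, Rpsa copies among them, had 1530 and 1538 against 1223 and 1336 (ratio 0.834). Proteasome and ubiquitin pseudogenes, at 50 and 40 against 30 and 49, and sensory receptor pseudogenes, at 29 and 34 against 17 and 30, overlapped between groups. Each exact permutation p for a family was 0.333 or larger, and differences between families were not tested.

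**Figure D4:**
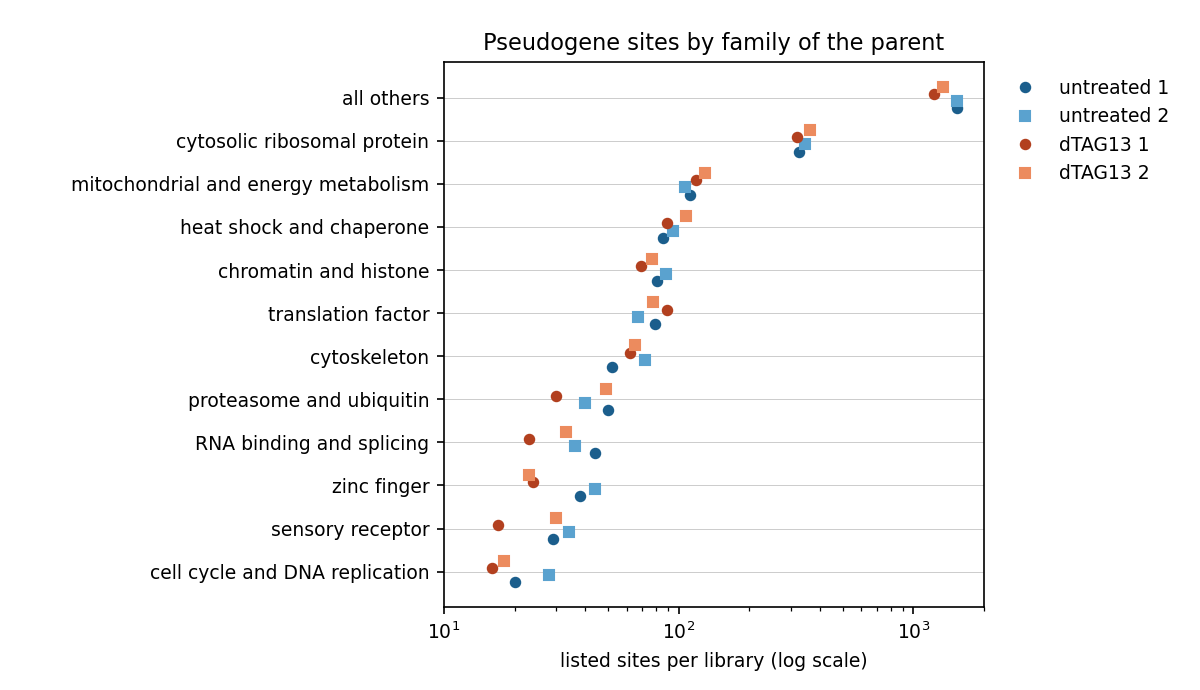
Listed sites per library, on a log scale, for pseudogenes grouped by the family of the parent gene; each point is a library. The dTAG13 points lie left of the untreated points for zinc finger (24 and 23 against 38 and 44) and for pseudogenes in no family, right of them for mitochondrial and energy metabolism (119 and 130 against 112 and 106), and among them for ribosomal protein.

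Each pseudogene was then set beside its parent within a library. There were 350 and 354 such pairs without dTAG13 and 298 and 347 with it. The median level of the pseudogene's sites exceeded that of the parent's sites by a median of 4.95 and 4.54 percentage points without dTAG13 and 3.20 and 3.83 with it. Both dTAG13 values were lower, by 1.23 percentage points (exact permutation test, p = 0.333). With sites of at least 50 reads alone the excess was 1.61 and 1.46 in the untreated pair and 1.07 and 1.19 in the dTAG13 pair, and the difference between groups was -0.40 percentage points. With reads summed over the listed sites of a gene that difference was -0.55 percentage points. Over the 207 pairs with a value in all 4 libraries the excess was 2.27 and 1.96 in the untreated pair and 2.60 and 2.61 in the dTAG13 pair, and the difference between groups had the other sign (0.49 percentage points, exact permutation test, p = 0.333), so the size depended on depth and the direction on which pairs were counted. A pair's median rested on few sites, with a median of 3 per pseudogene in every library and 10 or 11 per parent. The pseudogene had the higher level in 67.7% and 65.8% of pairs without dTAG13 and in 62.4% and 63.4% with it.

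Coverage, which the tables give as an unnormalised value per gene and library in the form of a mean over positions, was lower in most pseudogenes than in their parents, with exceptions of large size. Over the 207 pairs with coverage in all 4 libraries, the median log2 ratio of pseudogene to parent was -0.996 and -0.91 untreated and -0.79 and -0.91 with dTAG13. The pseudogene was lower in all 4 libraries in 117 pairs and higher in all 4 in 60. It was over 10-fold lower in all 4 in 23 pairs and over 10-fold higher in all 4 in 7. Several copies share a parent, since the 207 pairs held 152 parents.

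The 7 pairs were Rps13-ps1, Rps15a-ps3, Rpl17-ps10, Pcna-ps2, Rbm3-ps, Hmgn2-ps1 and Rpl28-ps3. Rps15a-ps3 had a coverage of 8531 and 7746 in the untreated pair and 5441 and 10099.6 in the dTAG13 pair, the highest of all pseudogenes in the test, while Rps15a had 100.1 and 107 without dTAG13 and 94.5 and 129 with it. Rps13-ps1 had 6526 and 6268 without dTAG13 and 4450.3 and 7421 with it, against 40.8, 49.3, 55.7 and 38.4 in Rps13. In both pairs the copy stood above the parent in every library, by a mean of 6.18 and 7.06 on the log2 scale. Outside the ribosome, Pcna-ps2 had 2208 and 2231 in the untreated pair and 942 and 1580 in the dTAG13 pair, and Pcna had 64.9, 66.4, 35.7 and 44.1. At the other end, Rpl10a-ps4 over Rpl10a had a mean log2 ratio of -7.47 (SD 0.302 over the 4 libraries) and Pgk1-ps3, from a glycolytic kinase gene, over Pgk1 of -6.86 (SD 0.218). Sites of a highly covered copy and its parent cannot be ascribed with certainty to either, and whether reads were placed at several copies is not given in the sources used here.

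**Figure D5:**
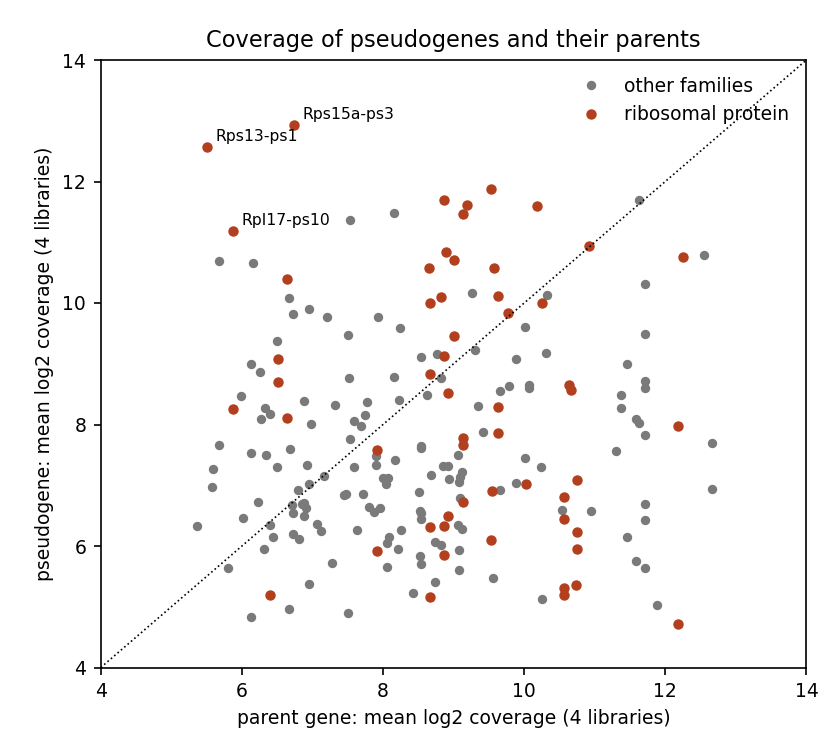
Mean log2 coverage over the 4 libraries of each pseudogene against its parent, for the 207 pairs with coverage in all 4 libraries; ribosomal protein pairs are in red and the dotted line marks equal coverage. Of these pairs 117 lie below the line in all 4 libraries and 60 above it, and Rps13-ps1, Rps15a-ps3 and Rpl17-ps10 stand highest above it.

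Coverage changes with dTAG13 were tested with limma on log2 coverage centred on the median gene of each library, over 12520 genes with a value in all 4 libraries. Of the 542 pseudogenes 257 qualified, so those listed in fewer libraries are not described by this test. None passed an adjusted p of 0.05, and neither did any of the 12520 genes (0%). An unadjusted p under 0.05 was seen in 38 of the 257, 30 of them lower, next to a background of 12.7% of all genes, 8.34% of all genes being lower. The median log2 change was -0.23 in pseudogenes, -0.20 in the 232 parents tested and -0.07 in all genes tested. Both dTAG13 libraries were below both untreated libraries for 108 pseudogenes (42.0%, background 29.2%) and above them for 27 (10.5%, background 17.0%). In the parents the same counts were 115 (49.6%) and 18 (7.76%). In bulk RNA, fewer cells that express a gene and less RNA per cell cannot be told apart.

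The pseudogenes of highest coverage differed little between groups. Besides Rps15a-ps3 and Rps13-ps1, they were Rpl3-ps1 at 4230 and 3929 against 2781 and 4365, Rps12-ps4 at 3571 and 3341 against 2476 and 4158, and Tpt1-ps5. Their log2 changes lay between -0.20 and -0.02, with standard errors of 0.198 to 0.244 (limma, adjusted p 0.676 to 0.970). The sign for Rps15a-ps3, Rps13-ps1 and Rps12-ps4 turned when single libraries were left out.

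The smallest p-values, named after the values were seen, were those of Psmb7-ps1, Scp2-ps2, Ckb-ps1, Ckb-ps2, Aldoa-ps4 and Gemin6-ps, all with an adjusted p of 0.363 in limma. Psmb7-ps1, from a catalytic proteasome subunit gene, had 649 and 668 in the untreated pair and 222 and 370.1 in the dTAG13 pair, a log2 change of -1.12 (SE 0.215). Ckb-ps1 and Ckb-ps2, both from the brain creatine kinase gene, had 135 and 147 against 62.2 and 66.7, and 128 and 74.6 against 31.2 and 35.3. Their parent Ckb had 402 and 535 against 241 and 356, a log2 change of -0.58, next to -1.05 and -1.47 in the copies. In Gemin6-ps, from a gene of the SMN complex that assembles spliceosomal particles, coverage was higher with dTAG13, at 67.2 and 49.1 against 92.4 and 140.5, a log2 change of 1.07 (SE 0.251).

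By family, the 61 ribosomal protein pseudogenes tested had a median log2 coverage change of -0.09, close to the -0.07 of all genes tested. Both dTAG13 libraries were below both untreated ones for 16 of them (26.2%, background 29.2%) and above for 8 (13.1%, background 17.0%), so both shares were near the background. The 5 RNA binding and splicing pseudogenes had a median of 0.01. Without overlap, 1 was lower (20%, background 29.2%) and none higher (background 17.0%). All 15 mitochondrial and energy metabolism pseudogenes had a change below 0, as did 72.8% of all pseudogenes and 56.7% of all genes tested. The median of these 15 was -0.35, and 10 of them (66.7%, background 29.2%) were lower without overlap between groups. All 7 translation factor pseudogenes (background 29.2%) were lower without overlap, with a median of -0.34. Other medians were -0.56 in 2 cell cycle, -0.41 in 6 cytoskeleton, -0.40 in 5 proteasome and ubiquitin and -0.34 in 6 heat shock pseudogenes. They were -0.41 in 1 zinc finger, -0.28 in 8 chromatin and histone and 0.25 in 2 sensory receptor pseudogenes, and -0.27 in 139 of no family. None of these passed the adjusted threshold, and differences between families were not tested. The mitochondrial and translation factor families had no fewer listed sites on average with dTAG13, as given above, while the coverage values tested were lower. The site counts cover all 24 and 10 pseudogenes of these families, and the coverage values only the 15 and 7 tested.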

How the data were processed

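Per the labels, GLORI libraries of polyA RNA from day 6 organoids were sequenced in 2 untreated and 2 dTAG13 replicates, grouped here by sample title. The authors deposited 1 site table per library, with replicates not pooled. Per the file headers, each site has the counts of A and G reads and of A reads (not normalised), the fraction A of A and G and the conversion rate of the gene as a fraction, a coverage signal per gene, and a p-value raw and adjusted. Every deposited fraction matched the counts within 0.0001 (100% of sites), and no adjusted p-value deposited exceeded 0.00401. Aligner, caller and duplicate removal are not given in the sources used here, and the submitters' processing notes name mm10.

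Levels are A reads over A and G reads. Libraries listed 335607 and 350462 (untreated) and 220034 and 263069 (dTAG13) sites, with a median of 75 to 91 reads. Intervals are Wilson 95% and cover counting error only. Single values were compared by exact two-sided permutation over libraries. Levels were tested with a quasi-binomial model per site, its dispersion moderated with limma 3.58.1 (R 4.3.3) and held at 1 or above. Coverage was tested with limma. Both were fitted on all sites or genes and adjusted by Benjamini-Hochberg. On simulated data the level test recovered 36% and 83% of sites changed by -1 and -2 in log odds (2321 sites), and the coverage test 19% and 100% of genes changed by 1 and 2 in log2 (12520 genes). The level simulation gave every site the same spread between libraries. Its recovery therefore does not describe sites whose replicates lie further apart.

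1 tested site is counted but not reported here. Named were the other tested sites, the 10 pseudogenes with most sites, sites whose untreated mean reached 90%, the deepest sites listed in 1 group only (up to 5 each way), the 5 pseudogenes of highest coverage, and parents of these; the sites of 50% to 90%, the coverage extremes and the smallest coverage p-values were chosen after their values were seen. Members, families and lists were chosen with earlier results of these data known. Family membership follows the symbol, so Rpsa copies are in no family. Sequences around the sites were not used here.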

Additional observations from a re-analysis of the deposited data

How the results depend on the processing

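The count of listed pseudogene sites was lower with dTAG13 under every read, level and member setting except the class of 90% or more, added after the data were seen, where the ratio was 1.09; leaving out each library gave 0.843 to 0.935. The share of genic sites stayed higher with dTAG13 (0.216 to 0.238 percentage points without single libraries). The difference in median level had no stable sign: 0.17 percentage points with at least 50 reads, 0.66 at levels of at least 20%, 0.49 in pseudogenes covered in all 4 libraries, and -0.26 to 0.15 without single libraries. The excess over the parent changed by 0.49 percentage points over pairs listed in all 4 libraries, a setting added after the data were seen, and by -1.54 to -0.92 without single libraries. Relative recovery was 0.431 for sites of at least 50%. Fisher's exact test on reads summed over replicates, which ignores their spread, called 9 of 28 pseudogene sites (3 lower, 6 higher; 22.9% of all 2321 sites); every other setting called 0. The median log2 coverage change was -0.31 without centring, where all genes shifted by -0.15, and -0.26 to -0.21 without single libraries. The causes of these shifts were not tested.

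With the replicate number as a block, 0 pseudogene sites and 0 pseudogenes were called. Same-numbered libraries did not deviate together (r = 0.038 over sites and 0.002 over genes), so the numbers only name libraries. The block took the calls over all sites from 53 to 0, as did leaving out any library.

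Leaving out single libraries turned the sign of uncalled changes. In percentage points these ranged from -0.30 to 2.41 in Eif4a-ps4, -23.2 to 5.598 in Nfyc-ps, -0.75 to 3.06 in Cox5b-ps, -6.46 to 2.37 in Amd-ps1, -4.07 to 4.32 in Ldhb-ps, -3.56 to 1.92 in Hmgb1-ps7, -2.93 to 1.83 in Eef1a1-ps1, -2.07 to 0.34 in Ftl1-ps2, -1.19 to 0.29 in Rpl3-ps1, -1.18 to 1.78 in Bnip3l-ps, -5.13 to 1.12 in Rbm6-ps1, -10.0 to 2.58 in Rab9b-ps1 and -1.96 to 0.73 in Marcksl1-ps5. On the log2 coverage scale they ranged from -0.28 to 0.18 in Rps15a-ps3, -0.23 to 0.082 in Rps13-ps1 and -0.18 to 0.14 in Rps12-ps4.

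With 2 libraries a group, no exact test of a single value can pass 0.05. Sites under 15 reads or 10% are not listed, so a loss of listing is not a measured level.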
